A study of Anguilla anguilla with 12 samples.

Results

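The miRNAs described here are those of the eel liver list that are named for the families miR-148, miR-152, miR-33, miR-34, miR-103, miR-107, miR-370 and miR-378, which are known from studies of lipid and glucose metabolism. They were chosen by name: an entry belongs here if the zebrafish miRNA given as the example with its seed begins with one of these family names. The rule found 19 of 820 predicted precursors, and they carry 11 of 676 distinct mature sequences. Of the 8 families, 3 had entries: miR-148 with 9 entries, miR-103 with 5 and miR-34 with 5. The other 5 families, miR-152, miR-33, miR-107, miR-370 and miR-378, were not listed under their own names. In vertebrates miR-152 has the seed of miR-148 and miR-107 that of miR-103, and the names in the list stand for seeds. The entries named miR-148 can therefore include miR-152 and those named miR-103 can include miR-107. Families not listed by name are not shown to be absent.

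The livers came from yellow European eels (Anguilla anguilla), wild fish in their growth stage, of which 6 lived in the Gironde Estuary, the polluted site of the study, and 6 in Arcachon Bay, its pristine site. Small RNA libraries were sequenced from each liver. The table of predicted precursors used here gives 1 read count per precursor, with no column for an eel. Each value is therefore taken as a single pooled one. Which of the libraries entered it is not known. Depth per eel and spread between eels are unknown, no error between animals can be given, and the sites are not compared. Intervals are exact binomial (Clopper-Pearson) 95% intervals and cover counting error only, and reads are not independent molecules. In this pool the hepatocyte families miR-122, miR-192 and miR-194 held 66.5% of mature reads, the endothelial miR-126 held 0.763%, miR-451 of red blood cells 0.156%, and the muscle families 0.00598%. Families of epithelium held 0.0809%, those of pancreas 0.0671%, those of leukocytes 0.00271% and those of nerve cells 0.000236%. Among the leukocyte families searched 2 of 4 had an entry of their name, and among the muscle families 1 of 3. These are short lists of names, so their shares do not measure the cell types. The miR-146b seed, outside the leukocyte list, had 3418928 mature reads. miR-143, outside the muscle list, had 2370072. miR-142, miR-223, miR-133, miR-206 and, for red blood cells, miR-144 had none. Because the names stand for seeds, these families are not shown to be absent either.

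A miRNA is cut from a hairpin precursor. The strand that is usually kept is called the mature arm and its partner the star arm, and the seed, bases 2 to 8 of the mature arm, does most of the pairing with target mRNAs. In mammals, miR-148a is abundant in liver and restrains the LDL receptor and the cholesterol transporter ABCA1. In mice, miR-103 and miR-107 lower insulin sensitivity of liver and fat. Members of the miR-34 family are induced by p53, and miR-34b and miR-34c are best known from cells with motile cilia. miR-33 lies within genes of the SREBP transcription factors and also represses ABCA1, and in mammals miR-378 lies within a gene of a PGC-1 coactivator.

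The mature sequences are shown first because the families differ in their seeds and the miR-148 members differ at a few bases behind a common seed. All are printed 5′ to 3′ as deposited, with the seed in capitals. The 6 sequences named miR-148 share the seed CAGUGCA.
miR-148, scaffolds 1157 and 6210: uCAGUGCAuuacagaacuuugu
miR-148, scaffold 2147: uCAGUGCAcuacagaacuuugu
miR-148, scaffold 1087: uCAGUGCAuaacagaacuuuga
miR-148, scaffold 6020: uCAGUGCAuaacagaacuuugg
miR-148, scaffold 8673: cCAGUGCAcuacagaacc
miR-148, scaffold 2029: uCAGUGCAuacagaacuuag
The 2 sequences named miR-103 share the seed GCAGCAU and differ at the 3′ end.
miR-103, scaffolds 192, 338 and 1226: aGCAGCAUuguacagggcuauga
miR-103, scaffold 754: aGCAGCAUuguacagggcuauc
The miR-34 sequences have 2 seeds, AGGCAGU and GGCAGUG, which have the letters GGCAGU in common, moved by 1 base.
miR-34b, scaffold 306: uAGGCAGUguaguuagcugauu
miR-34c-5p, scaffold 22566: uGGCAGUGucuuagcugguuguu
miR-34c-5p, scaffold 1831: uGGCAGUGuaacguuagcugg

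The miR-148 sequences held nearly all reads of these families. With each mature sequence counted once, at its highest count, the 11 sequences had 6163774 mature reads, which is 2.26% of the 272589277 mature reads in the list. miR-148 accounted for 6126619 of them, or 2.25% of the list (interval 2.246% to 2.249%) and 99.4% of the reads described here. miR-103 had 35995 mature reads, or 0.0132% of the list (interval 0.0131% to 0.0133%). The miR-34 sequences had 1160, or 0.000426% (interval 0.000401% to 0.000451%). The order miR-148, miR-103, miR-34 thus spans several powers of 10, and the intervals of the 3 families do not overlap.

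Ranked by mature reads over the 552 seeds of the list, the miR-148 seed came 6th, just below miR-26a-5p with 6306265 reads and above miR-100-5p with 4975393. The miR-103 seed came 39th, between miR-459-5p with 40078 reads and miR-140-5p with 34079. The miR-34b seed was 96th with 945 reads, next to miR-182-5p with 962. The miR-34c-5p seed was 165th with 215 reads. Outside the miR-122 seed, which filled most of the pool, miR-148 made up 6.38% of mature reads.

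**Figure D1:**
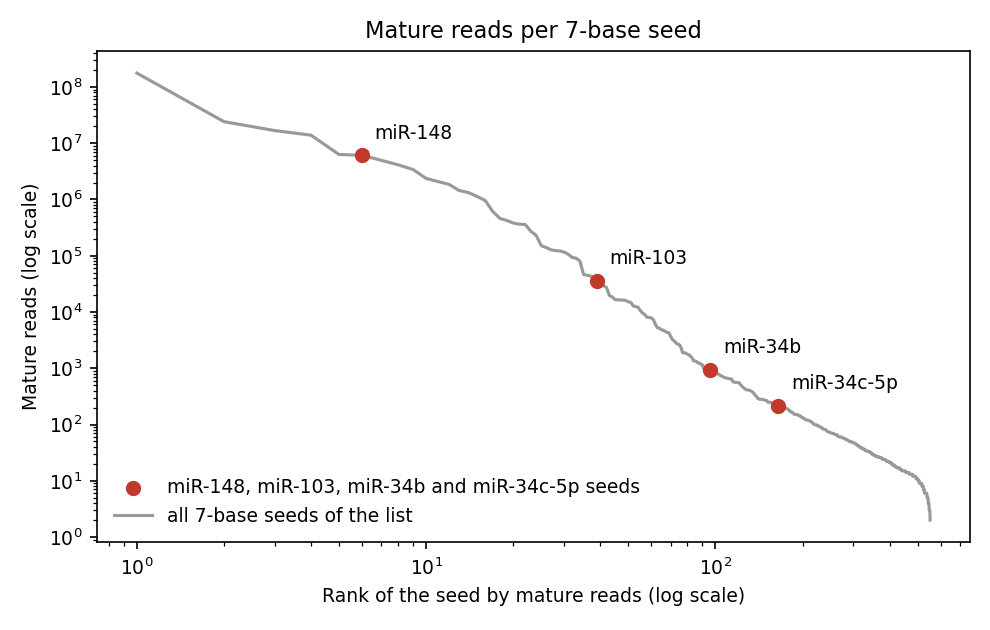
Mature reads per 7-base seed (vertical, log scale) against the rank of the seed (horizontal, log scale), with each mature sequence counted once. Points mark the seeds of miR-148, miR-103, miR-34b and miR-34c-5p, at ranks 6, 39, 96 and 165, and the line is all 552 seeds.

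Other miRNA families known from lipid or glucose metabolism frame these levels. Of 16 such families chosen for the comparison, 13 had an entry of their name. Those above miR-148 were miR-122 with 176603218 mature reads and miR-26 with 6306265. A further 6 lay between miR-148 and miR-103: miR-192 with 4141267, miR-143 with 2370072, miR-30 with 1939052, miR-128 with 1447633, miR-181 with 1133279 and miR-27 with 121394. miR-375, miR-130, miR-29, miR-182 and miR-96 were below miR-103, with 7863 reads at most, and miR-144, miR-185 and miR-223 were not listed by name. The 16 are a choice and do not cover all such families. The let-7j, miR-22a-3p and miR-21 seeds, outside the 16, also ranked above miR-148, with 24206232, 16790902 and 13911568 mature reads.

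Among the miR-148 sequences, 4 carried the reads. The most abundant one, of scaffolds 1157 and 6210, had 3178975 mature reads, or 51.9% of the miR-148 reads, and was 10th of the 676 mature sequences. The scaffold 2147 sequence had 2378945 reads, or 38.8%, and was 12th. The scaffold 1087 sequence had 358887 reads (5.86%) and the scaffold 6020 sequence 209683 (3.42%). These 4 are all 22 nt long, and they vary at positions 9, 10 and 22 only, counted from 1 at the 5′ end, so all of their differences lie outside the seed. Relative to the most abundant sequence, that of scaffold 2147 carries U9C, that of scaffold 1087 carries U10A and U22A, and that of scaffold 6020 carries U10A and U22G. The scaffold 1087 and 6020 sequences differ from each other by A22G alone. Whether reads with a mismatch, or reads short of the last base, were counted at several of them is not stated in any source used here, so the split of reads among the 4 is less certain than their sum.

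The other miR-148 sequences were rare. That of scaffold 8673 is 18 nt long and had 90 mature reads, and 16 of its bases in a row also occur in the scaffold 2147 sequence. That of scaffold 2029 is 20 nt long and had 39 reads, and it shares a run of 10 bases with each of the abundant sequences. Neither had a star read, and their scores were 2.3 and 1.4. The letters CAGUGCA also occur near the start of other miRNAs: the 2 miR-130b sequences, with 2482 and 310 reads, hold them at bases 1 to 7, which gives these a seed moved by 1 base. No entry outside the 19 had the miR-148, miR-103, miR-34b or miR-34c-5p seed at bases 2 to 8, and none met the rule for a shifted copy of the 11 sequences. The seeds of families without an entry were not searched.

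The hairpins of the 4 abundant miR-148 sequences lie at 5 places on the scaffolds of the assembly named in the coordinates of the table; no source used here names its build, and its annotation was not used. They are printed with the mature arm in capitals, and only the lower-case part tells scaffolds 1157 and 6210 apart.
miR-148, scaffold 1157: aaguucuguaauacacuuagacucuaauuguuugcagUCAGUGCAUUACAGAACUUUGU
miR-148, scaffold 6210: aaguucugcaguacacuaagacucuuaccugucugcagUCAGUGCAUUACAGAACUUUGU
miR-148, scaffold 2147: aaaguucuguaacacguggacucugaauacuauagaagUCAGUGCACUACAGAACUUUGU
miR-148, scaffold 1087: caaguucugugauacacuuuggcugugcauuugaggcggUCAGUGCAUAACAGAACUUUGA
miR-148, scaffold 6020: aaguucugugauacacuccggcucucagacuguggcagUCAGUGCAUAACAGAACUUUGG
In the order printed they span 36715 to 36773 (minus strand), 19538 to 19597 (minus strand), 51847 to 51906 (plus strand), 203818 to 203878 (minus strand) and 19421 to 19480 (plus strand). The mature arm is on the 3p side in each of the 5. No precursor of another family lay within 10 kb of any of them on the same strand, so none was part of a listed cluster. In global alignments the scaffold 1157 and 6210 hairpins were identical at 53 of 60 aligned positions (88.3%), the closest pair. The scaffold 1087 and 6020 hairpins were identical at 49 of 61 (80.3%), and the scaffold 2147 hairpin was 71.0% to 80.6% identical to the other 4.

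The star arms separate the pair of loci that have the same mature arm. The mature sequence shared by scaffolds 1157 and 6210 was counted 3178974 times at the first and 3178975 times at the second, so these reads appear to have been counted at each place. The star sequences of the pair are shown with the bases that differ in capitals.
miR-148 star, scaffold 1157: aaguucugUaAuacacuUagacu
miR-148 star, scaffold 6210: aaguucugCaGuacacuAaga
They differ by U9C, A11G and U18A over 21 shared positions, counted from the 5′ end of the star. Star reads numbered 164695 on scaffold 1157 and 6111 on scaffold 6210, a ratio of 27.0. Of the 170806 star reads at these loci, 96.4% thus belonged to scaffold 1157 (interval 96.3% to 96.5%). How the mature reads divide between the loci was not measured.

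The scaffold 1087 and 6020 loci had almost equal star reads.
miR-148 star, scaffold 1087: caaguucugugauacacuUUggc
miR-148 star, scaffold 6020: aaguucugugauacacuCCggcu
The star sequences differ by U19C and U20C over 22 shared positions, counted from the 5′ end of the first. The scaffold 1087 hairpin had 3909 star reads beside 358887 mature reads, and the scaffold 6020 hairpin 4116 star reads beside 209683 mature reads.

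As a share of mature plus star reads, the miR-148 star arms ranged widely. The share was 4.93% on scaffold 1157 (interval 4.90% to 4.95%), 1.93% on scaffold 6020 (1.87% to 1.98%) and 1.08% on scaffold 1087 (1.04% to 1.11%). It was 0.192% on scaffold 6210 (0.187% to 0.197%) and 0.0614% on scaffold 2147 (0.0583% to 0.0646%), whose hairpin had 1461 star reads beside 2378945 mature reads. No interval overlapped another, but these cover counting error only, not how mature reads divide among the loci. The shares of scaffolds 1157 and 6210 rest on the same mature reads. Against the star reads of both, the star share of that sequence was 5.10%. The list held 234 precursors with 1000 or more reads on their arms. Their median star share was 0.188% (quartiles 0.00802% and 2.49%), and 48 of them had a higher share than the scaffold 1157 hairpin.

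**Figure D2:**
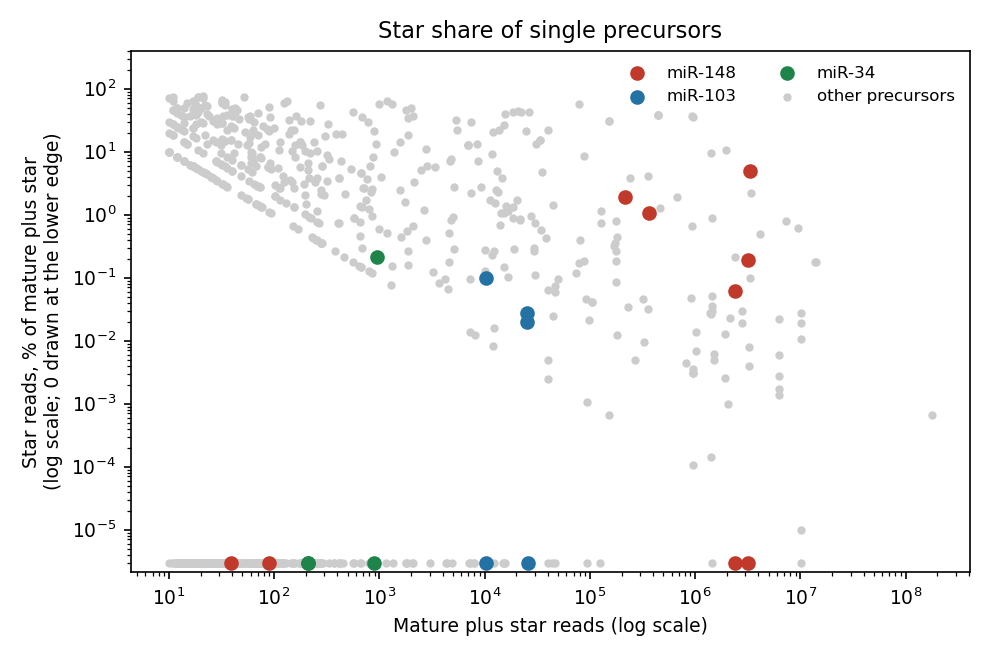
Star reads as a percentage of mature plus star reads (vertical, log scale, with 0 drawn at the lower edge) against mature plus star reads (horizontal, log scale) for precursors with at least 10 such reads. Each point is 1 precursor: the 5 miR-148 hairpins with star reads lie between 0.0614% and 4.93%, and the 3 miR-103 precursors with star reads lie below 0.1%.

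miR-103 was carried by 4 hairpins. Its 23 nt sequence had 25777 mature reads on scaffold 192 (86716 to 86777, minus strand), 25506 on scaffold 338 (18467 to 18526, plus strand) and 25506 on scaffold 1226 (91318 to 91378, minus strand). The counts differ by 271 reads at most, so reads of the copies are not separated. The 22 nt sequence, on scaffold 754 (30060 to 30114, minus strand), had 10218 mature reads and differs by G22C and by the lack of a 23rd base. miR-103 and miR-107 of vertebrates share a seed and differ near the 3′ end. Whether this sequence is miR-103 or miR-107 was not determined. Its seed cannot tell them apart, and its 3′ end was not compared with reference sequences.

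Star reads of miR-103 were few. On scaffold 192 there were 0, which at 3 reads allows a share of up to 0.0116% (interval 0% to 0.0143%). There were 5 on scaffold 338 (0.0196%, interval 0.00636% to 0.0457%), 7 on scaffold 1226 (0.0274%, interval 0.0110% to 0.0565%) and 10 on scaffold 754 (0.0978%, interval 0.0469% to 0.180%). The first 3 intervals overlap, but overlap of intervals does not settle whether the shares differ, and a difference among these copies was not tested. The star sequence of scaffold 338 also lies within the scaffold 1226 precursor, so the 5 and 7 star reads can be the same reads. The hairpins of the 3 copies are printed with the mature arm in capitals, since the miRDeep2 scores of these close copies were far apart.
miR-103, scaffold 338: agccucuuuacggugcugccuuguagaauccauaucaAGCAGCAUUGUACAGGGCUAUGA
miR-103, scaffold 1226: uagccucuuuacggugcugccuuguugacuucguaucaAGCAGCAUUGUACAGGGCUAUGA
miR-103, scaffold 192: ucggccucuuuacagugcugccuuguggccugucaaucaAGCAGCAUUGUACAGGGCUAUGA
The score was 13008.7 on scaffold 338, 3.9 on scaffold 1226 and 3.7 on scaffold 192. The first pair were identical at 56 of 61 aligned positions (91.8%) and had the same mature reads and nearly the same star reads. Of the 19 entries, 6 scored above 10, at 0.51 per read each, and the other 13 scored 3.9 or less.

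The miR-34 family was scarce in the list. miR-34b came from a pair of hairpins on the plus strand of scaffold 306, at 338433 to 338494 and 338685 to 338737, with 190 nt between them. Both carry the same mature sequence on the 5p arm, so the mature reads counted at each can be largely the same reads.
miR-34b, scaffold 306, first hairpin: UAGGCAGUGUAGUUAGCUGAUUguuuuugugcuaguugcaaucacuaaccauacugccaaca
miR-34b, scaffold 306, second hairpin: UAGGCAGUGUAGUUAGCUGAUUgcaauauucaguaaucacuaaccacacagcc
The first had 884 mature reads and 0 star reads, which allows a star share of up to 0.339%, and the second had 945 mature and 2 star reads (0.211%, interval 0.0256% to 0.761%). The pair are 74.2% identical when aligned and were the only neighbouring, non-overlapping hairpins among the entries described here. The entry named miR-34c-5p on scaffold 22566 (678 to 742, plus strand) had 208 mature and 0 star reads. Its name stands for a seed, so which miR-34 member it is was not determined. The sequence on scaffold 1831 (131752 to 131807, minus strand) had 7 mature reads. It shares a run of 9 bases, which takes in its seed, with miR-34c-5p of scaffold 22566, and a run of 9 bases with miR-34b as well. Set in register without gaps, with miR-34b starting 1 base earlier, miR-34b and miR-34c-5p of scaffold 22566 are identical at 11 of 21 positions. The letters UUAGCUG occur in both but out of that register, so an alignment with gaps would match more bases.

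**Figure D3:**
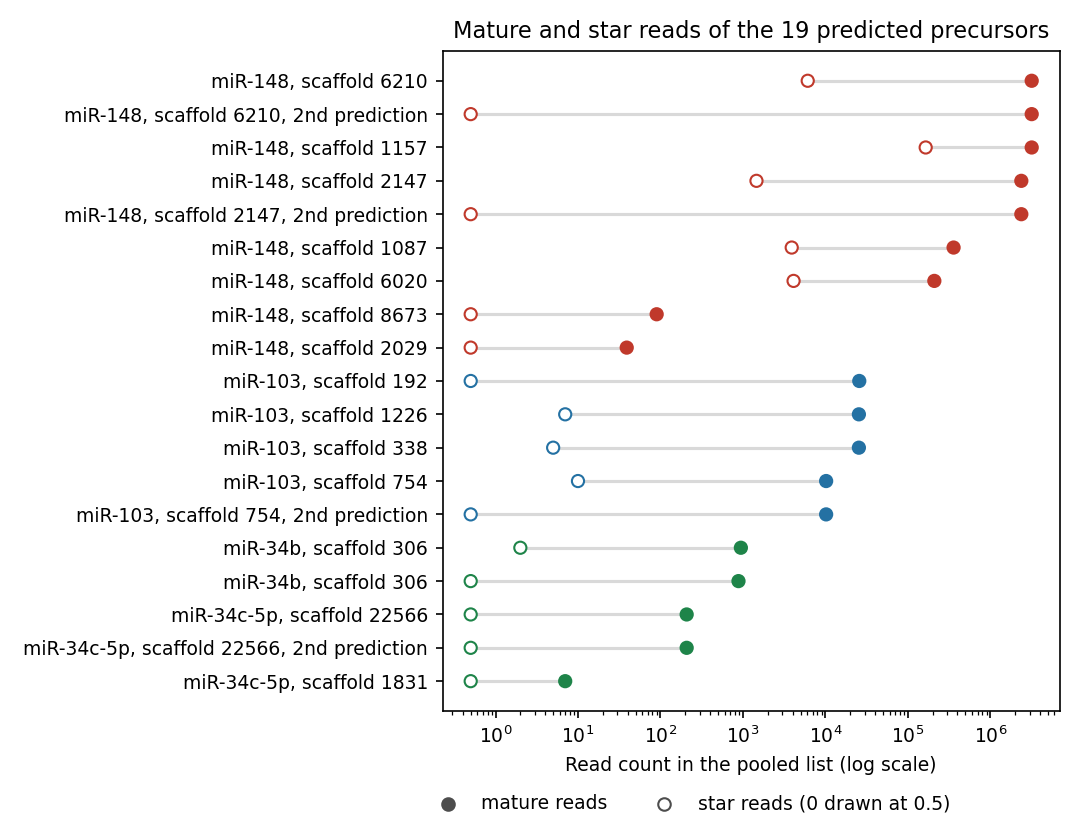
Mature reads (filled points) and star reads (open points, 0 drawn at 0.5) of the 19 precursors on a log scale, grouped as miR-148, miR-103 and miR-34 from top to bottom. Mature reads run from 3178975 in miR-148 to 7 in miR-34c-5p, and 10 precursors have no star read.

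At 4 places the table held a second prediction that reuses the same mature sequence with the other side as its partner. On scaffold 6210 a hairpin of 45 nt (19515 to 19559) takes the miR-148 sequence as its 5p arm, and on scaffold 2147 a hairpin of 66 nt (51885 to 51950) does the same. On scaffold 754 a hairpin of 75 nt (30007 to 30081) takes the miR-103 sequence as its 5p arm. On scaffold 22566 a hairpin of 68 nt (633 to 700) takes miR-34c-5p as its 3p arm. Each has the same mature reads as the first prediction of its locus and 0 star reads. For the scaffold 6210 prediction, 0 star reads beside 3178975 mature reads allow, at 3 reads, a star share of up to 9.44e-05% (interval 0% to 0.000116%). The first prediction there had 6111 star reads. At scaffolds 6210, 2147 and 754 the star reads therefore all fell to the prediction with the mature sequence on the 3p arm. Counting 1 precursor per locus leaves 15 of the 19.

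**Figure D4:**
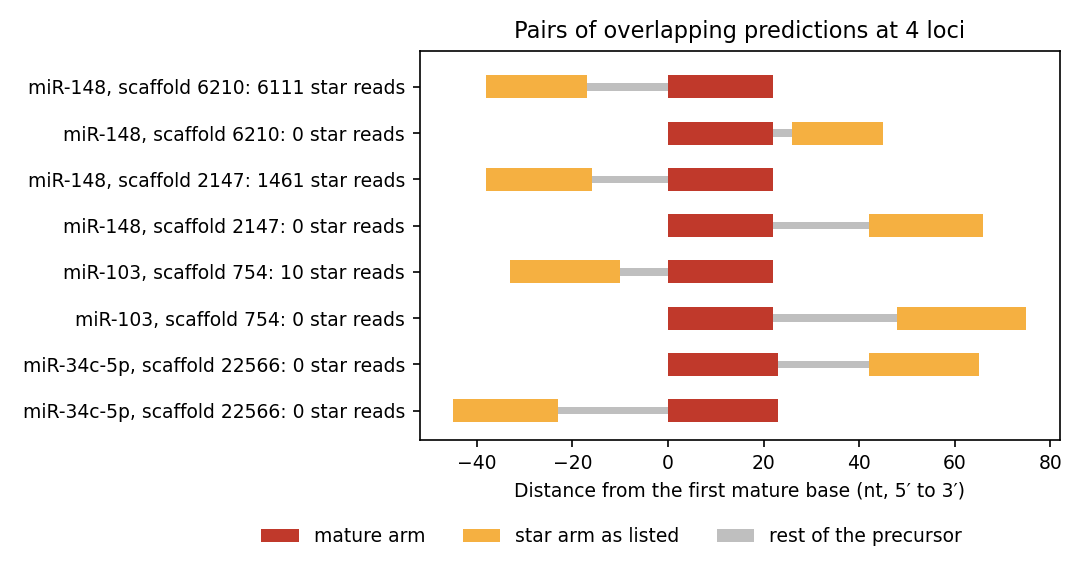
Pairs of overlapping predictions at 4 loci, drawn along the distance in nt from the first mature base. Red bars are the mature arm, which both predictions of a locus share, orange bars are the star arm as listed, and grey is the rest of the precursor; the star reads stand beside each name.

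Folding with RNAfold gave weaker hairpins for all 9 miR-148 entries than the median of the list. The minimum free energy of the 5 main miR-148 hairpins was -22.0 kcal/mol on scaffold 1157, -20.8 on scaffold 1087, -18.8 on scaffold 6020, -18.5 on scaffold 2147 and -16.5 on scaffold 6210. The median of the whole list was -24.2 kcal/mol. Base pairs between mature and star arm numbered 18, 17, 17, 16 and 13 in the same order, beside a list median of 16.5 (quartiles 15 and 18). The scaffold 1157 and 6210 hairpins, with the same mature arm, thus had 18 and 13 pairs. The second predictions on scaffolds 6210 and 2147 had 12 and 11 pairs. The rare miR-148 entries of scaffolds 8673 and 2029 had -8.3 and -9.5 kcal/mol, and only 3 and 7 of the 820 precursors were as weak or weaker. Their precursors of 38 and 47 nt are short beside the list median of 60 nt, and the energy depends on length. The main miR-103 hairpins had -26.2 to -16.5 kcal/mol and those of miR-34b -25.9 and -22.2.

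**Figure D5:**
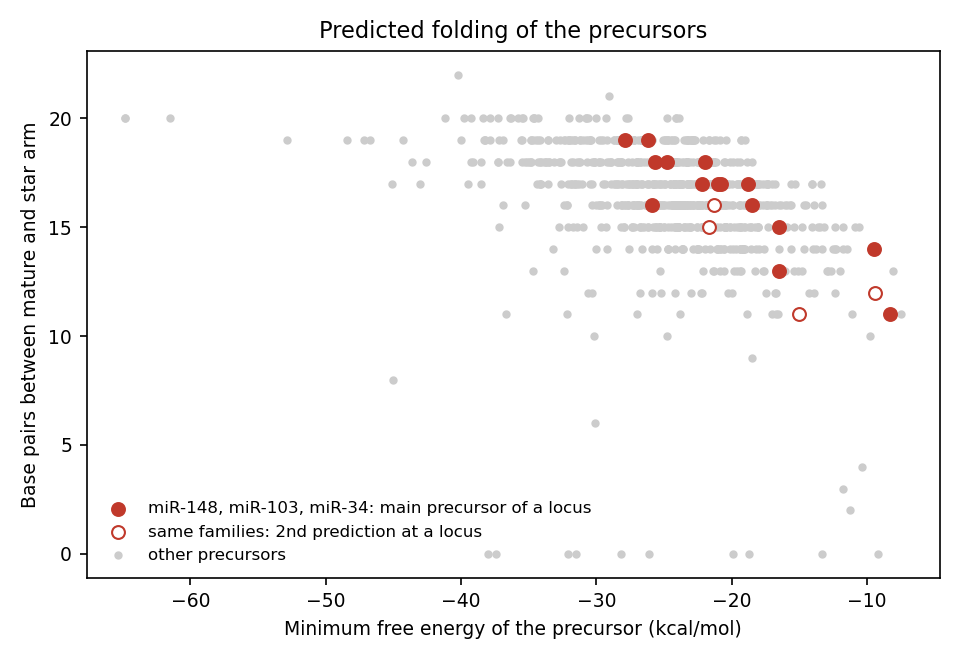
Base pairs between the mature and the star arm (vertical) against the minimum free energy of the precursor in kcal/mol (horizontal) for all 820 precursors. Filled red points are the main precursors of miR-148, miR-103 and miR-34, open points the second predictions at a locus, which have 11 to 16 pairs, and grey points the rest.

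Beside the rest of the list, these entries had a higher median of mature reads and a lower median star share. The median was 25506 mature reads over the 19 entries and 99 over the other 801, most of which have no seed match. Over all 311 seed-matched entries, which include the 19, it was 7863. Star reads were present in 9 of the 19 entries (47.4%) and in 519 of the other 801 (64.8%). With 1 prediction per locus they were present in 9 of 15 (60%), and over the seed-matched entries in 205 of 311 (65.9%). The median star share was 0.00980% over the 18 entries with at least 10 mature plus star reads and 0.452% over the other 774. It was 0.0444% with 1 prediction per locus and 0.0796% with each mature sequence at its most abundant entry. Over the 300 seed-matched entries with at least 10 such reads it was 0.0609%, so the direction beside these depended on how copies were counted. The mature arm was on the 5p side in 7 of the 18 (38.9%) and in 386 of the 774 (49.9%), and with 1 prediction per locus in 4 of 14 (28.6%). Over the seed-matched entries it was on that side in 172 of 300 (57.3%). Overlapping predictions and copies were not merged among the seed-matched entries or the rest of the list. The values with 1 prediction per locus or 1 entry per mature sequence are therefore counted differently from those. These are descriptions without a test, since copies and overlapping predictions are not independent.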

How the data were processed

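Precursors were predicted by miRDeep2, per the file headers, and the authors deposited a mature, star, loop and total read count for each of them, as whole numbers without normalization. The authors also deposited the miRDeep2 score, a log-odds score per precursor. The tool bcl2fastq 2.17.1.14 was used, per the submitters' processing notes; aligner, mismatches, trimming and the version of miRDeep2: not given in the sources used here. Values are not divided by eel, so they are taken as pooled and the sites were not tested. The total equalled its parts in 820 of 820 entries. Listed starts count from 0, and 1 was added.

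Members were found by name. Every member sequence is named, together with precursors that overlap a member or lie within 10 kb on its strand, and sequences with a shifted end (a member's seed within the first 10 bases and a shared run of at least 15). Members and lists were chosen with earlier results of these data known. Each mature sequence was counted once, at its highest count. Star share and arm were read only where the arms had 10 or more reads together. Of overlapping predictions, the one with more total reads was called the main one. A count of 0 was taken to allow 3 reads. Precursors were folded with RNAfold 2.7.2 and aligned with biopython 1.88; the rest was done in scipy 1.17.1, numpy 2.4.6 and pandas 2.3.3 under Python 3.11.15, and the functions were tested on simulated data. Alternatives were score and read minimums, other ways to count copies, and other denominators.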

Additional observations from a re-analysis of the deposited data

Results flagged for a closer look

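Loop reads, which come from between the arms and entered no result above, exceeded the 3 reads that a count of 0 allows in 3 of the 19 entries. The miR-34c-5p precursor on scaffold 22566 that starts at 678 had 17 loop reads beside 208 mature and 0 star reads, or 7.56% of its reads (exact binomial interval 4.46% to 11.8%), and 4 of the 820 precursors had a higher loop share. The overlapping prediction that starts at 633 had 5 loop reads, or 2.35% (interval 0.766% to 5.39%); its loop lies on the other side of the mature sequence. The miR-148 precursor on scaffold 6020 had 5 loop reads, or 0.00234% (interval 0.000759% to 0.00546%). In the whole list 44 precursors had more than 3 loop reads.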

How the results depend on the processing

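Shares depended on the denominator and on how copies were counted. The share of all these families was 2.26% and that of miR-148 2.25%. At a score of at least 4 they were 6.64% and 6.62%, and at 10 they were 6.64% and 6.62% again, since these filters remove the miR-122 precursor. Outside the miR-122 seed they were 6.42% and 6.38%, with reads summed over all entries 3.85% and 3.83%, with 1 sequence per seed 1.31% and 1.30%, and by total reads 2.31% and 2.30%. The 11 distinct sequences became 5 at a score of at least 4 and 5 at 10, 7 with at least 1 star read, 4 with each seed counted once and 19 with each entry counted. The median star share of 0.00980% became 0.0235% with at least 100 and 0.0444% with at least 1000 mature plus star reads, 0.0796% with each mature sequence at its most abundant entry, and 0.0444% with overlapping predictions merged, an alternative chosen after seeing the data. The 5p share of 38.9% was 37.5%, 25% and 28.6% under its alternatives. These are subsets of the same entries, which are not independent, so they are no separate check. No paired analysis was possible because the list has no value per eel, and leaving out single eels could not be run for the same reason. Pooled counts, names that stand for seeds and copies with shared reads limit all of these values.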
